A study of Mus musculus with 6 samples.

Results

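Described here are 10 transcription factors and co-factors of the nephron progenitors, Six2, Cited1, Osr1, Wt1, Pax2, Sall1, Eya1, Meox1, Meox2 and Nr2f2, chosen by name and matched by symbol to 10 of the 26567 genes that could be quantified. RNA came from cap mesenchyme sorted from kidneys of C57BL/6 mouse embryos at embryonic day 18.5, with 3 libraries labelled Dnmt1 +/- (conditional heterozygous, HET) and 3 labelled Dnmt1 -/- (conditional homozygous knockout, KO). In both groups a Six2-driven Cre recombinase deleted conditional alleles of Dnmt1, so the controls carried the Cre and had lost 1 allele, and no library without Cre was compared. The labels do not give the marker used for sorting, the conditional allele, how the Cre was placed under Six2 or whether a library came from 1 embryo, so the spread behind each p-value is that between these libraries alone, and part of it may be technical.

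Cap mesenchyme surrounds the tips of the ureteric bud and holds the progenitors from which nephrons form, and it is kept up by a network of transcription factors that balance self-renewal against differentiation. Six2, a homeodomain factor, holds the cells in the undifferentiated state, and Cited1, a co-activator without a DNA-binding domain, marks the least differentiated of them. Osr1, Wt1, Pax2, Sall1 and Eya1 act earlier or beside Six2, and mice that lack any of these genes have kidneys that are missing or severely underdeveloped. Dnmt1 copies CpG methylation onto the new DNA strand at replication.

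Levels are given as CPM, estimated counts scaled to a common library size with a correction for library composition (TMM). Estimated counts totalled 46741667 to 61585484 per library. Dnmt1 was at 40.04, 52.4 and 51.7 CPM in HET replicates 1 to 3 and at 20.9, 18.6 and 14.9 CPM in KO replicates 1 to 3. By the summed level of 4 Y-linked genes, HET replicates 1 and 3 and KO replicate 2 were male and the others female. Each group held both sexes, so its libraries did not all come from a single embryo. Six2 and Cited1, markers of the labelled cell type, were at 56.5 CPM or more in every library. Both are among the factors described here, and no reference level was used. Their levels are therefore not an independent check of cell identity. Col1a1, a stromal marker, was also at 91.0 CPM or more in every library.

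KO replicate 1 stood apart in markers of other kidney cells. The summed level of 10 endothelial markers was 219.7 CPM in KO replicate 1, 90.8 and 49.1 CPM in KO replicates 2 and 3, and 35.1 to 41.9 CPM in the HET libraries, and none of the 10 was at 0 in all libraries. The 8 stromal markers summed to 663, 321 and 254.5 CPM in KO replicates 1 to 3 against 188 to 237.5 CPM in HET. The 9 ureteric bud markers summed to 224, 128 and 71.3 CPM against 43.3 to 73.9 CPM. In each of these 3 lists 1 marker passed the test as higher (Emcn, Lum and Ret) and none as lower. Of all genes tested, 4.92% were called higher and 1.92% lower. Not every listed marker rose, as Foxd1 (stroma, 15.4 CPM) and Hoxb7 (ureteric bud, 15.8 CPM) in KO replicate 1 lay within the HET range. Lyz2 of 7 macrophage markers and Lrp2 of 5 proximal tubule markers were also called higher, and none of 5 red blood cell markers was called either way. All 10 transcription factors had their lowest KO level in KO replicate 1, where 34.5% of all genes tested did. Their median level, relative to each gene's HET mean, was 63.8% in KO replicate 1, 84.2% in KO replicate 2 and 80.5% in KO replicate 3. In bulk RNA, fewer cells of a type and less RNA per cell cannot be told apart. Values without KO replicate 1 are therefore given beside the results, and the part of the other cell types in the results was not tested.

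**Figure D1:**
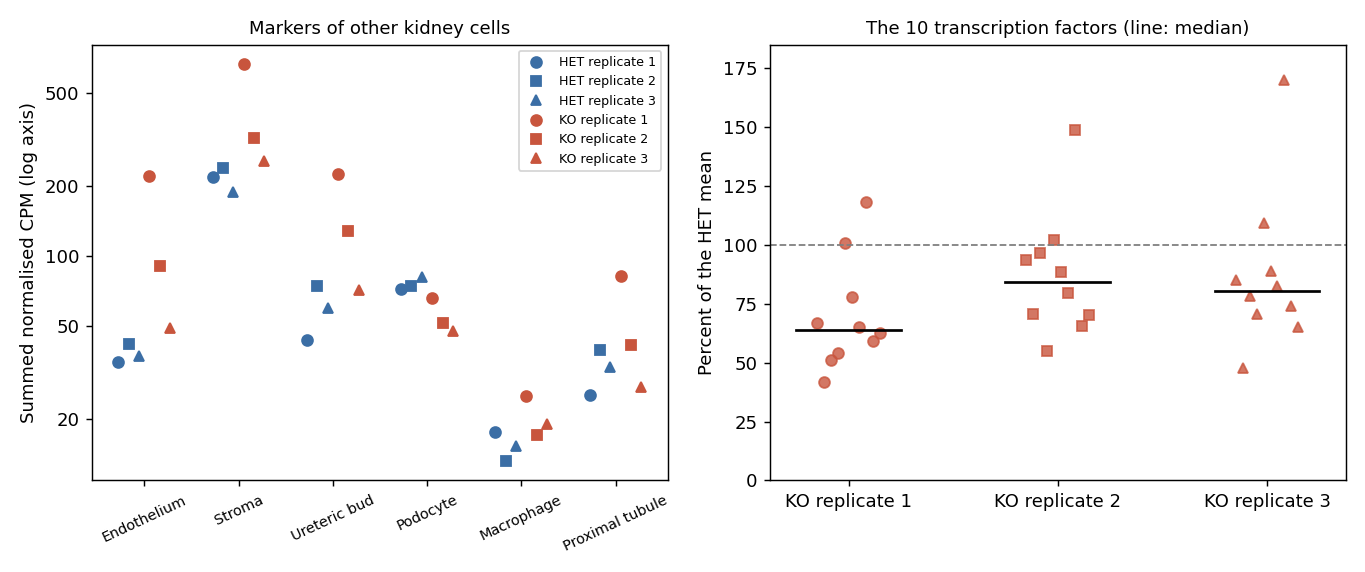
The left panel shows the summed normalised CPM (log axis) of fixed marker lists for 6 other kidney cell types in each library, and the right panel shows the level of the 10 transcription factors in each KO library as a percentage of the HET mean. KO replicate 1 is the highest library for endothelium, stroma, ureteric bud, macrophage and proximal tubule markers, and has the lowest median of the transcription factors (63.8%).

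Of the 10 progenitor factors 4 fell in the knockout, Cited1, Wt1, Nr2f2 and Meox2, none rose, and 6 did not pass (adjusted p under 0.05 over 16989 genes, edgeR's quasi-likelihood test with Benjamini-Hochberg adjustment). Among all genes tested, 1.92% were called lower and 4.92% higher. All 10 passed the filter on low counts. The fitted log2 fold change was negative for 8 of the 10, with a median of -0.40, where the median over all genes tested was -0.003. The KO libraries lay below all HET libraries for 6 factors and above them for 1, Meox1, where 14.2% and 14.8% of all genes did so. At an unadjusted p below 0.05, 6 were lower and 1 was higher, against 9.61% and 12.4% of all genes. DESeq2 called 5 lower and 1 higher, against 2.98% and 6.84% of all genes it tested. Without KO replicate 1, 3 factors were called lower (Cited1, Wt1 and Nr2f2) and 1 higher (Meox1), against 1.33% and 4.26% of all genes. With a HET library left out 2 factors were called lower, while 1.36%, 0.983% and 0.978% of all genes were without HET replicates 1, 2 and 3. Without KO replicate 2 it was 2 factors and 0.672% of genes, and without KO replicate 3 it was 3 factors and 1.57% of genes. When CPM were scaled only to library totals, the median over all genes was -0.17, 11.1% of genes were called lower, and so were 7 factors.

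**Figure D2:**
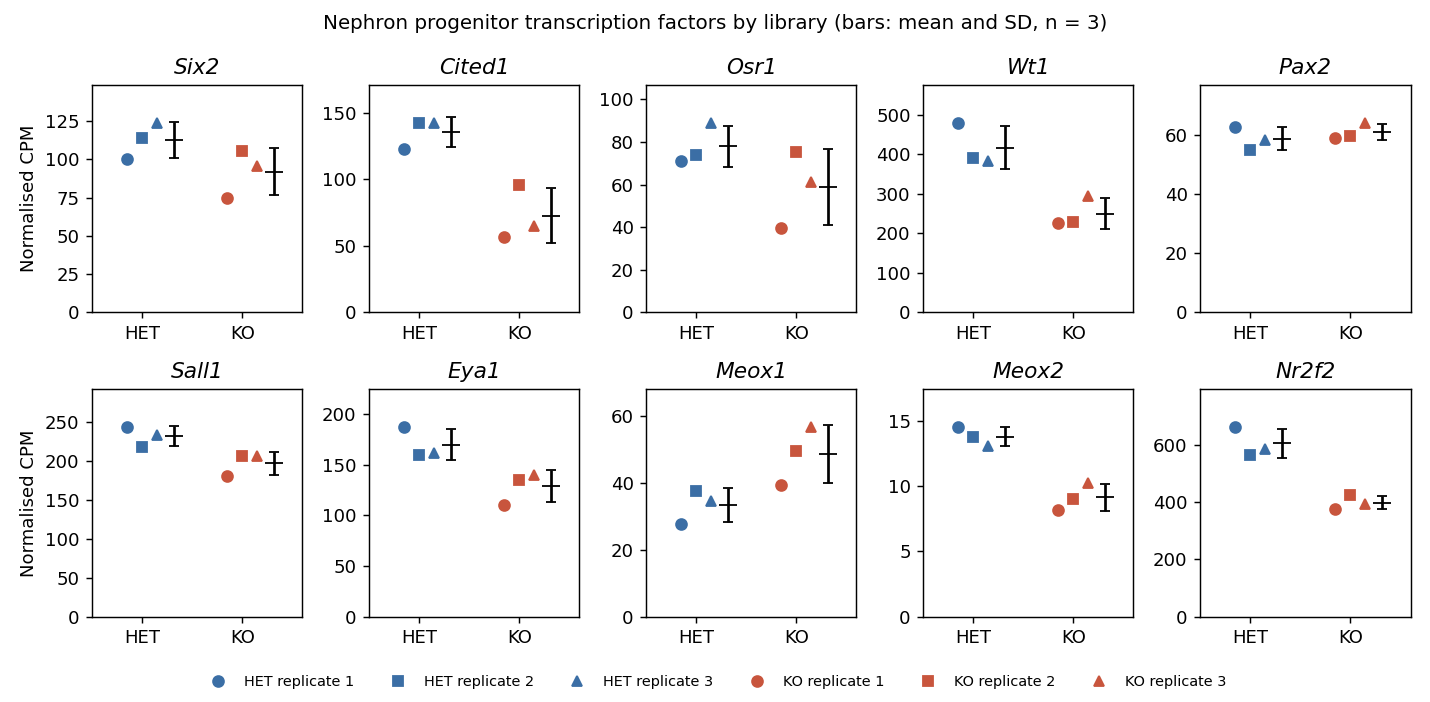
Each panel shows 1 gene, with the normalised CPM of the 3 HET and 3 KO libraries as points and the mean and SD of each group as a bar. The groups are apart for Cited1, Wt1, Sall1, Eya1, Meox2 and Nr2f2, which are lower in KO, and for Meox1, which is higher.

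Six2 itself lies on chromosome 17 (chr17:85662736-85688254, GRCm38.p6, minus strand, RefSeq gene span). Its level was 99.9, 114 and 124 CPM in HET and 74.97, 105 and 95.8 CPM in KO replicates 1 to 3. KO replicate 2 lay above HET replicate 1, so the groups overlapped, and the log2 fold change of -0.29 ± 0.13 (SE) did not pass (adjusted p = 0.230 by edgeR with Benjamini-Hochberg). Without KO replicate 1 it was -0.15 (adjusted p = 0.484), while on library totals alone it was -0.46 and passed (edgeR, adjusted p = 0.0228). Of its 2 listed transcripts, 1 passed the filter on low counts. By TPM, as on library totals, all KO libraries lay below all HET libraries for Six2.

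Cited1 showed the lowest log2 fold change of the 10. It is on the X chromosome (chrX:102247378-102252181, minus strand). HET replicates 1 to 3 had 123, 142 and 142.5 CPM, and KO replicates 1 to 3 had 56.5, 96.1 and 65.1 CPM. The highest KO library, replicate 2, was the male one and still lay below every HET library. The HET mean was 136 ± 11.2 CPM and the KO mean 72.6 ± 20.8 CPM (SD, n = 3 each), a log2 change of -0.90 ± 0.19 (SE; adjusted p = 0.0344 by edgeR with Benjamini-Hochberg). The call held without KO replicate 1 (-0.75, adjusted p = 0.0228), without KO replicate 2 (-1.15, adjusted p = 0.00109) and with embryo sex as a covariate (-0.85, adjusted p = 0.0385). It was lost without any 1 of the HET libraries or without KO replicate 3 (edgeR, adjusted p from 0.0699 to 0.119 by Benjamini-Hochberg), and without a filter on low counts (adjusted p = 0.0518).

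Eya1, a co-activator and phosphatase that binds Six2 and its paralogs, and Sall1, a zinc finger factor that works with Six2, did not pass, although for both all KO libraries lay below all HET libraries. Eya1 (chr1:14168953-14311035, minus strand) was at 187, 159.8 and 162 CPM in HET and at 111, 135 and 140.0 CPM in KO. The groups did not overlap, and the log2 fold change was -0.40 ± 0.11 (SE; adjusted p = 0.0519 by edgeR with Benjamini-Hochberg). It passed with DESeq2, library totals or another filter on low counts (adjusted p from 0.00555 to 0.0461), and in no analysis with a library left out. It was -0.29 without KO replicate 1 (adjusted p = 0.132). Sall1 (chr8:89027242-89044162, minus strand) was at 244, 219 and 234 CPM in HET and at 180.5, 206 and 206 CPM in KO. These groups did not overlap either, and the log2 fold change was -0.23 ± 0.08 (SE; adjusted p = 0.139 by edgeR with Benjamini-Hochberg). It was -0.16 without KO replicate 1 (edgeR, adjusted p = 0.361), and on library totals it was -0.40 and passed (adjusted p = 0.00875).

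Osr1, a zinc finger factor of the intermediate mesoderm from which the kidney arises, had the largest SD among the KO libraries relative to its KO mean. It lies on chromosome 12 (chr12:9574442-9581500, plus strand) and was at 70.9, 73.8 and 89.0 CPM in HET and at 39.8, 75.4 and 61.1 CPM in KO. KO replicate 2 was within the HET range and KO replicate 1 far below it, although by TPM and on library totals the groups did not overlap. The log2 fold change was -0.41 ± 0.23 (SE; adjusted p = 0.360 by edgeR with Benjamini-Hochberg), and without KO replicate 1 it was -0.18.

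Pax2, a paired-box factor that is also made by the ureteric bud, was close to level. It lies on chromosome 19 (chr19:44746601-44838269, plus strand). HET replicates 1 to 3 had 62.6, 54.9 and 58.2 CPM and KO replicates 1 to 3 had 58.95, 59.7 and 64.0 CPM, so the groups overlapped. The log2 fold change was 0.06 ± 0.09 (SE; adjusted p = 0.734 by edgeR with Benjamini-Hochberg), with a 95% interval of -0.11 to 0.22 from the SE alone, and its sign turned on library totals and on TPM. The value was 0.09 without KO replicate 1 (edgeR, adjusted p = 0.677). The ureteric bud markers were higher in KO replicates 1 and 2, as given above, and their part in the Pax2 level was not tested.

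Wt1, a zinc finger factor needed for the survival of the progenitors and made at high levels by podocytes later on, lies on chromosome 2 (chr2:105126529-105173614, plus strand). HET replicates 1 to 3 had 479.8, 389.8 and 382 CPM, and KO replicates 1 to 3 had 225, 230.0 and 295 CPM. The highest KO library was well below the lowest HET library. The HET mean was 417 ± 54.3 CPM and the KO mean 250.1 ± 39.1 CPM (SD, n = 3 each), a log2 change of -0.74 ± 0.13 (SE; adjusted p = 0.00723 by edgeR with Benjamini-Hochberg). It was -0.66 without KO replicate 1 (adjusted p = 0.0207), and the call was lost without KO replicate 2 (-0.67, adjusted p = 0.0604). The Wt1 call was also lost with limma on log2(TPM + 1) without a filter on low levels (-0.87, adjusted p = 0.0648). The 6 podocyte markers, none at 0 in all libraries, summed to 71.8 to 81.0 CPM in HET and 65.55, 51.5 and 47.65 CPM in KO replicates 1 to 3. Of these 6 markers 2 fell, where 1.92% of all genes tested did. Their part in the Wt1 level was not tested.

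Wt1 transcripts come in forms with and without 3 extra codons between the third and the fourth zinc finger, known by their amino acids as KTS. The transcript table listed transcripts of both forms. The exon end that defines the forms is shown. The leading transcript with KTS (ENSMUST00000111098) has 9 extra bases there, in capitals, that the leading transcript without KTS (ENSMUST00000111099) lacks. These transcripts also differ elsewhere, as ENSMUST00000111099 includes an exon that ENSMUST00000111098 skips. Both stretches shown are coding sequence from the GENCODE vM1 transcripts, 5′ to 3′.
Wt1 with KTS: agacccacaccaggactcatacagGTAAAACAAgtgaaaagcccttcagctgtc
Wt1 without KTS: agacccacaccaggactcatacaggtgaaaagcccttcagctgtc
The transcript with KTS was at 193, 154 and 151 CPM in HET and 99.0, 95.6 and 114 CPM in KO, a log2 change of -0.69 ± 0.12 (SE; adjusted p = 0.0459 by edgeR with Benjamini-Hochberg over 50137 transcripts). The transcript without KTS was at 115, 95.4 and 94.05 CPM in HET and 54.8, 61.1 and 73.5 CPM in KO, also -0.69 ± 0.14, and did not pass (SE; adjusted p = 0.0682 by edgeR with Benjamini-Hochberg). For both forms every KO library lay below every HET library. With KO replicate 1 left out the log2 changes were -0.66 with KTS and -0.59 without it, and neither passed (edgeR, adjusted p = 0.173 and 0.193). The call for the form with KTS was lost with any 1 of the 6 libraries left out (adjusted p from 0.0724 to 0.204). Of the counts on the 6 listed transcripts that could be told apart at the exon end shown, the form with KTS held 62.1%, 60.3% and 60.1% in HET and 62.5%, 59.3% and 57.9% in KO. The means of 60.8% ± 1.11 and 59.9% ± 2.32 (SD, n = 3 each) differed by less than the spread between libraries (exact permutation test, 2-sided p = 0.6, where the smallest possible is 0.1). Further Wt1 transcripts of the annotation were not in the tables, so the shares depend on how kallisto divided reads among those listed. One absent transcript (ENSMUST00000111101) has KTS and includes the exon that ENSMUST00000111098 skips. In these shares, and in the log2 changes of the leading transcripts, use of KTS and use of that exon cannot be fully told apart.

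**Figure D3:**
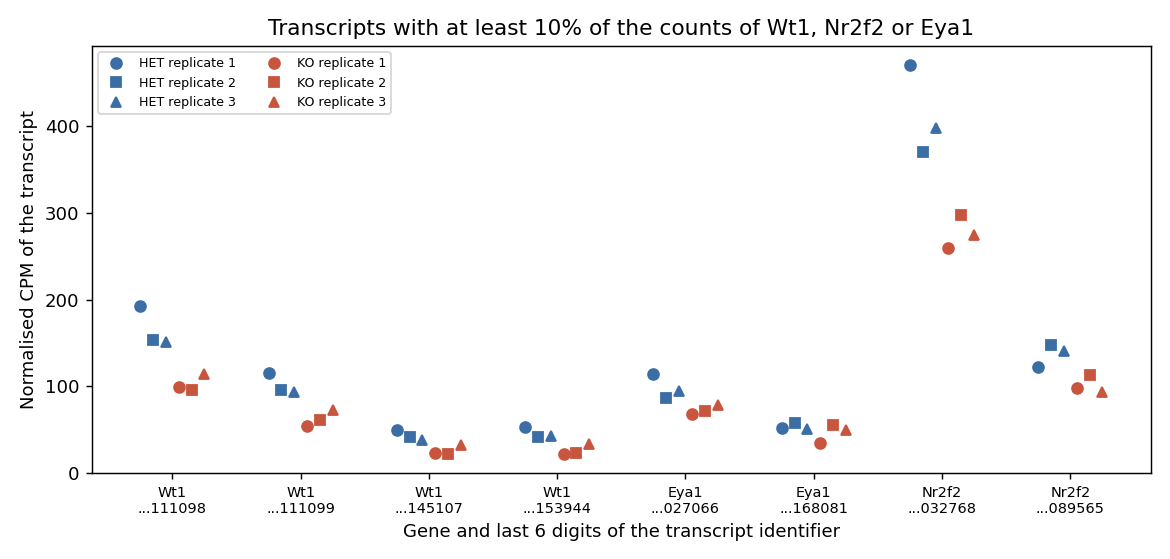
Points show the normalised CPM, in the 3 HET and 3 KO libraries, of each transcript with at least 10% of the counts of Wt1, Eya1 or Nr2f2. All 4 Wt1 transcripts, both Nr2f2 transcripts and the first Eya1 transcript are lower in every KO library than in any HET library, while the second Eya1 transcript overlaps. The Wt1 transcripts ENSMUST00000145107 and ENSMUST00000153944 are annotated as retained introns.

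Nr2f2 and the Meox genes are the remaining factors. Nr2f2, the orphan nuclear receptor COUP-TFII, is also known from stroma and venous endothelium (chr7:70351946-70366746, minus strand). It was at 663, 566 and 588 CPM in HET and at 378, 425 and 394 CPM in KO. The 2 groups were far apart, with means of 606 ± 51.1 and 399 ± 23.8 CPM (SD, n = 3 each) and a log2 change of -0.60 ± 0.09 (SE; adjusted p = 0.00212 by edgeR with Benjamini-Hochberg). Nr2f2 was the single factor called in all 18 alternative analyses, with log2 fold changes from -0.77 to -0.53 and adjusted p of up to 0.0134. The value was -0.56 without KO replicate 1 (edgeR, adjusted p = 0.00656). The summed stromal and endothelial markers were higher in each KO library than in any HET library, but not every single marker was. In KO replicate 3 Emcn (14.2 CPM) lay above the HET range, while Pecam1 (2.32 CPM) and Cdh5 (1.10 CPM) lay within it. Foxd1 of the stromal list lay within the HET range in every KO library. The part of these cell types in the Nr2f2 level was not tested.

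Both of its listed transcripts had lower levels in every KO library than in any HET library. The longer one (ENSMUST00000032768) held 71.5% to 79.25% of the Nr2f2 counts in HET and 72.3% to 74.6% in KO, and had a log2 change of -0.57 ± 0.11 (SE; adjusted p = 0.0548 by edgeR with Benjamini-Hochberg). The shorter one (ENSMUST00000089565) had -0.43 ± 0.11 (SE; adjusted p = 0.145 by edgeR with Benjamini-Hochberg). Over all 10 factors, 24 of 27 listed transcripts were tested, 1 was called lower and none higher (edgeR), where 0.199% and 1.59% of all transcripts tested were. At an unadjusted p below 0.05, 9 were lower and 1 was higher, against 5.51% and 7.94% of all transcripts. In an analysis added after the data had been seen, without KO replicate 1, none was called lower, against 0.122% of all transcripts, and the longer and the shorter Nr2f2 transcript had log2 changes of -0.53 and -0.40 (edgeR, adjusted p = 0.181 and 0.339).

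Meox1 and Meox2, homeobox factors of mesoderm that are both found in cap mesenchyme, had log2 fold changes of opposite sign. Meox2 (chr12:37108540-37179534, plus strand) was at 14.5, 13.8 and 13.1 CPM in HET and at 8.15, 9.04 and 10.2 CPM in KO. The groups did not overlap, and the log2 fold change of -0.59 ± 0.14 passed (SE; adjusted p = 0.0303 by edgeR with Benjamini-Hochberg). The call was lost in 5 of 6 analyses with a library left out, among them the one without KO replicate 1 (-0.51, adjusted p = 0.0895), with adjusted p of up to 0.126, and with sex as a covariate (adjusted p = 0.0849).

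Meox1 (chr11:101877510-101894354, minus strand) was the 1 factor whose KO libraries all lay above the HET libraries, at 39.4, 49.6 and 56.7 CPM against 27.85, 37.7 and 34.6 CPM. The means were 33.4 ± 5.04 CPM in HET and 48.6 ± 8.69 CPM in KO (SD, n = 3 each). The log2 fold change of 0.54 ± 0.15 did not pass (SE; adjusted p = 0.0704 by edgeR with Benjamini-Hochberg). It passed without KO replicate 1 (0.68, adjusted p = 0.0171) and with DESeq2 (0.55, Benjamini-Hochberg adjusted p = 0.00878). On library totals alone the groups overlapped. An annotated gene on the opposite strand overlaps Meox1 (Gm11551), as is the case for Pax2 and Eya1, and without strand information reads from such pairs cannot be told apart.

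**Figure D4:**
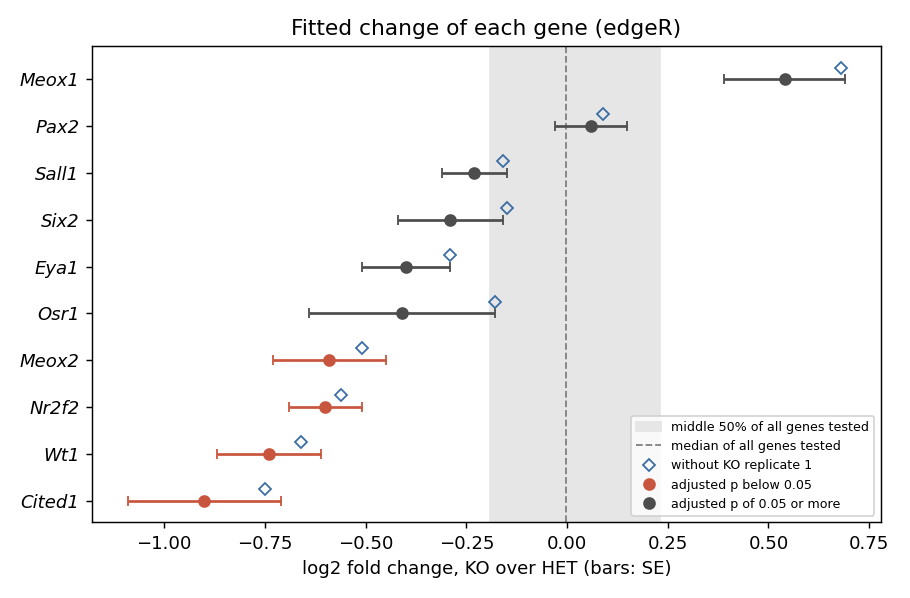
Points show the fitted log2 fold change of each gene, KO over HET, with its SE as a bar, coloured by whether the adjusted p was below 0.05, and diamonds show the value without KO replicate 1. Cited1, Wt1, Nr2f2 and Meox2 lie at -0.59 or lower, Meox1 lies at 0.54, and the grey band marks the middle 50% of all genes tested (-0.19 to 0.23).

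Levels were compared between genes on the TPM scale, which divides by transcript length. In HET, Wt1 (260.5 ± 46.9 TPM), Nr2f2 (241 ± 20.7) and Cited1 (211 ± 6.48) were the 3 most abundant factors (SD, n = 3 each). Wt1 and Nr2f2 overlapped in range, and Cited1 lay below both. Six2 followed at 65.0 ± 4.37 TPM, above Sall1 (51.75 ± 5.16), Osr1 (47.7 ± 4.83) and Eya1 (46.1 ± 6.46), whose ranges overlapped. Pax2 (23.0 ± 2.56), Meox1 (18.2 ± 1.97) and Meox2 (7.12 ± 0.71) were lowest and did not overlap. In KO the order was Nr2f2 (149 ± 5.07 TPM), Wt1 (142 ± 24.2), Cited1 (103 ± 25.2), Six2 (48.8 ± 6.26), Sall1 (40.3 ± 1.66), Osr1 (32.9 ± 8.75), Eya1 (32 ± 2.94), Meox1 (24.4 ± 3.82), Pax2 (21.8 ± 1.19) and Meox2 (4.33 ± 0.431; SD, n = 3 each). Wt1 and Nr2f2 changed places in this order, with overlapping ranges in both groups. Meox1 and Pax2 did so too, with overlapping ranges in KO.

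A ratio to Six2 within the same library does not depend on the scaling between libraries, and it was computed for the other 9 factors. Relative to Six2, Cited1 stood at 1.23, 1.25 and 1.15 in HET and at 0.754, 0.912 and 0.680 in KO, a log2 difference of -0.64. Every KO library was below every HET library. Meox1 stood at 0.279, 0.331 and 0.279 of the Six2 CPM in HET and at 0.526, 0.471 and 0.592 in KO, a log2 difference of 0.84, and here every KO library was above. Wt1 stood at 4.80, 3.42 and 3.09 in HET and at 3.00, 2.18 and 3.08 in KO, a log2 difference of -0.44 with groups that only just separated, and the difference was -0.26 without HET replicate 1 and -0.28 without KO replicate 2.

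For these 3 ratios the exact permutation p was 0.1 (2-sided), the smallest that 3 against 3 libraries allow, and 0.3 after Benjamini-Hochberg adjustment over the 9 ratios. The other 6 ratios overlapped between groups. Nr2f2 and Meox2, which fell in CPM, had log2 differences of -0.30 each relative to Six2 (exact permutation p = 0.3), which were -0.15 and -0.18 without HET replicate 1. Eya1 had -0.10, Sall1 0.06, Osr1 -0.15 and Pax2 0.36 (exact permutation p from 0.2 to 0.8). Leaving out 1 library turned the sign for Eya1 (0.05 without HET replicate 1) and for Sall1 (-0.01 without KO replicate 1). Without KO replicate 1 the differences were -0.62 for Cited1, 0.84 for Meox1, -0.51 for Wt1, -0.40 for Nr2f2 and -0.36 for Meox2.

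**Figure D5:**
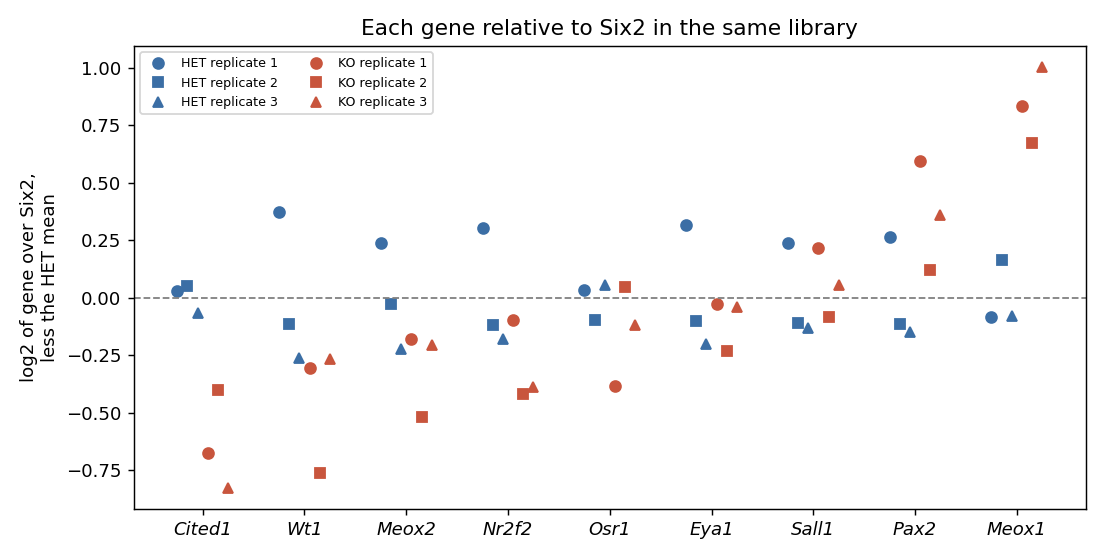
Points show, for each library, the log2 ratio of a gene's CPM to the CPM of Six2, less the mean of the HET libraries. The KO libraries are all below HET for Cited1 and Wt1 and all above HET for Meox1, and they overlap HET for the other 6 genes.

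The start regions of the factors were compared for CpG, the letters that Dnmt1 methylates (searched as CG, which reads the same on both strands). The RefSeq promoter table (GRCm38.p6) held entries for 6 of the 10, namely Six2, Cited1, Pax2, Sall1, Meox2 and Nr2f2. Over the 250 bases before each of 32851 starts in that table, the median was 6 CpG, with quartiles of 2 and 16, and 92.1% held at least 1. At the outermost start, Six2 had 26 CpG, more than 90.4% of all starts, Cited1 and Sall1 had 13, Meox2 12, Pax2 5 and Nr2f2 1, where 7.9% of all starts had fewer. The windows of Six2 and of the 3 genes with an entry that were called lower are shown to let the number and spacing of the CpG be seen, with CG in capitals and the strand of the gene from 5′ to 3′. They cover chr17:85688255-85688504 for Six2, chrX:102252182-102252431 for Cited1, chr12:37108290-37108539 for Meox2 and chr7:70366747-70366996 for Nr2f2.
Six2: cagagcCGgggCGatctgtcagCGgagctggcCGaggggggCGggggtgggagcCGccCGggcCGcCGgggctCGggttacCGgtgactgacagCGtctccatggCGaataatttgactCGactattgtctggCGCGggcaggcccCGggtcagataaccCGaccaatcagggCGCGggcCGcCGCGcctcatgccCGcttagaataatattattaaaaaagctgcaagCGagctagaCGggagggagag
Cited1: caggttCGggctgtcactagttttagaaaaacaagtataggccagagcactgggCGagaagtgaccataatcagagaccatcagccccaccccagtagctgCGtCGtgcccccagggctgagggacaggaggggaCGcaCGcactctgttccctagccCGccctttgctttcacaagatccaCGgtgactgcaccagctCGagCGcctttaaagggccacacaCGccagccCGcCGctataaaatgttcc
Meox2: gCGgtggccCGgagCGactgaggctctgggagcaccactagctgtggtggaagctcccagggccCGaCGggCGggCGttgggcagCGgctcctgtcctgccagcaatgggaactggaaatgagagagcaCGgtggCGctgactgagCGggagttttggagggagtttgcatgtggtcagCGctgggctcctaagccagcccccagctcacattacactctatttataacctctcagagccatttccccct
Nr2f2: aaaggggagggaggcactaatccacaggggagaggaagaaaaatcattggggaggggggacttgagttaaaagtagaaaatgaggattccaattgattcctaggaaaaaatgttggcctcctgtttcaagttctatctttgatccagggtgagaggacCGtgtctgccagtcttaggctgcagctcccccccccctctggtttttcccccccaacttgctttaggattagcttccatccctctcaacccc
The Six2 window holds CpG along its whole length, and the Nr2f2 window a single one. The libraries measured RNA, and the methylation of these sites was not analysed here. Cited1, Pax2 and Sall1 each had 3 listed starts, and the windows before the other starts held 9 and 30 CpG for Cited1, 20 and 25 for Pax2 and 25 and 30 for Sall1.

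Genes that work with the factors were read from 4 lists. Over all genes tested, edgeR called 1.92% lower and 4.92% higher, and DESeq2 2.98% and 6.84%. At an unadjusted p below 0.05 (edgeR), 9.61% were lower and 12.4% higher, and on library totals 11.1% were called lower. The counts of each list are to be read against these shares, and no list was tested as a set. Of 17 paralogs and complex partners 15 passed the filter on low counts, and of these 2 rose, none fell and 13 did not pass (edgeR, median log2 fold change -0.06; 3 higher and 2 lower at an unadjusted p below 0.05, 2 higher and none lower with DESeq2). Pax8, a paired-box relative of Pax2 that is made as nephrons form, rose from 125.5 ± 6.99 to 186 ± 14.6 CPM (SD, n = 3 each; 0.57 ± 0.09 on the log2 scale, SE; adjusted p = 0.00254 by edgeR with Benjamini-Hochberg). Six5 (-0.33 ± 0.11) and Osr2 (-0.41 ± 0.14) did not pass (log2 change, SE; adjusted p = 0.101 and 0.113 by edgeR with Benjamini-Hochberg). Pax8 stood at 0.64 without KO replicate 1 (edgeR, adjusted p = 0.00134) and was the 1 gene of this list called higher, where 4.26% of all genes were. On library totals 3 of the list were called lower, against 11.1% of all genes.

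Other regulators of the progenitors included 5 posterior Hox genes, of which Hoxd11, Hoxd10 and Hoxa10 fell. Of 11 members, 3 were lower, none was higher and 8 did not pass (edgeR, median -0.08; 4 lower and none higher at an unadjusted p below 0.05, 3 lower and none higher with DESeq2). Their log2 changes were -0.79 ± 0.08, -0.96 ± 0.10 and -0.64 ± 0.08 (SE; adjusted p = 0.000233, 0.000287 and 0.000645 by edgeR with Benjamini-Hochberg). Hoxa11 stood at -0.31 ± 0.13 and did not pass (edgeR, adjusted p = 0.209). Hoxc11, named after its values were seen, stood at 0.21 ± 0.13 (SE) and did not pass either (edgeR, adjusted p = 0.383). Without KO replicate 1 the values were -0.77 for Hoxd11, -1.06 for Hoxd10 and -0.65 for Hoxa10, and these 3 passed (edgeR, adjusted p of up to 0.00141).

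Among 15 progenitor genes downstream of the factors, 3 fell, 1 rose and 11 did not pass (edgeR, median -0.11; 6 lower and 1 higher at an unadjusted p below 0.05, 5 lower and 1 higher with DESeq2). Without HET replicate 2, 5 were called lower, against 0.983% of all genes, and on library totals 6 were, against 11.1% of all genes. Tmem100, a membrane protein, had a log2 change of -0.87 ± 0.10, Bmper, a BMP-binding protein, -1.17 ± 0.17, and Fgf10, a fibroblast growth factor, -0.51 ± 0.10 (SE; adjusted p = 0.000334, 0.00565 and 0.0137 by edgeR with Benjamini-Hochberg). Capn6, a calpain-like protein, rose by 0.53 ± 0.11 on the log2 scale (SE; adjusted p = 0.0141). The calls for Bmper and Capn6 were lost without HET replicate 1, and that for Capn6 also without HET replicate 3 or KO replicate 2 (edgeR, adjusted p of up to 0.0649 and 0.0620) and with limma on TPM. Without KO replicate 1 the values were -0.81 for Tmem100, -1.0 for Bmper, -0.40 for Fgf10 and 0.64 for Capn6, and all 4 passed (edgeR, adjusted p from 0.000747 to 0.0296). Gdnf, the ureteric bud growth factor that several of the 10 factors are known to control, was chosen after its values were seen. It was at 28.8, 22.5 and 26.5 CPM in HET and at 27.7, 26.75 and 24.7 CPM in KO.

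None of 11 early nephron genes passed in either direction (edgeR, median 0.01; 1 higher and 2 lower at an unadjusted p below 0.05, none higher and 1 lower with DESeq2). Wnt4, the signal that drives the progenitors into epithelium, had a log2 change of -0.43 ± 0.13 and Lef1, a Wnt target, -0.48 ± 0.17. Ccnd1, a cyclin, had 0.29 ± 0.10 and Jag1, a Notch ligand, 0.16 ± 0.09, with the sign of Jag1 turning on library totals (SE; edgeR, Benjamini-Hochberg adjusted p from 0.0811 to 0.316). None of these 4 passed without KO replicate 1 (edgeR, adjusted p from 0.0607 to 0.545). Wnt4 passed with DESeq2 (adjusted p = 0.0252) and in edgeR with the replicate number as a block (adjusted p = 0.0258). It also passed without KO replicate 3 (edgeR, -0.56, adjusted p = 0.0339). On library totals 2 of the 11 genes, Wnt4 and Lef1, were called lower, against 11.1% of all genes.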

How the data were processed

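Per the submitters' processing notes and the file headers, the authors ran kallisto, naming mm10, and deposited per library the estimated counts (expected counts) and TPM of 96626 transcripts. The kallisto version, annotation release and strandedness were not given in the sources used here. The deposited effective lengths served only as an offset. GENCODE vM1 (NCBIM37) paired 74519 transcripts with genes, and these held 92.4% to 92.82% of counts. For Pax2, Eya1 and Meox2 some transcript lengths differ between the files and this annotation. Coordinates are those of RefSeq on GRCm38.p6.

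Estimated counts were summed per gene, rounded and fitted with edgeR 4.0.16 in R 4.3.3 (TMM, filterByExpr, robust quasi-likelihood test, KO against HET, no covariate), and likewise per transcript, after checks on simulated data. For genes, the checks recovered 19.7% of simulated log2 changes of 0.7, 72.7% of changes of 1.0 and 100% of changes of 2.0. The simulated spread between libraries was a fixed setting, so these shares need not hold for the genes here. Alternatives used DESeq2 1.42.0, limma 3.58.1 on log2(TPM + 1) and log2(TPM + 0.1) with robust variances, other scalings and filters, a length offset, embryo sex (male above 50 CPM of Y-linked genes), the replicate number as a block, and each library left out. The 10 members, the 4 lists, the marker lists and the tests were chosen with earlier results of these data known. Named are the members, Dnmt1, the 4 genes of smallest p in each list, transcripts with at least 10% of a member's counts, and the 3 genes nearest in pattern to Six2, Wt1 and Cited1. Some called markers are named too. A few genes that this rule selects are not reported here. No 2 libraries of a group agreed within sampling noise (chi-square per degree of freedom from 13.81 to 42.28).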

Additional observations from a re-analysis of the deposited data

How the results depend on the processing

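The count of factors called lower was 4, and it was 7 with library totals; the count called higher was 0, and it was 1 with DESeq2 and with the replicate number as a block. With 1 library left out, 2 to 3 were lower and 0 to 1 higher. The 4 lists together had 6 genes lower and 3 higher. With library totals 15 were lower, where 11.1% of all genes were. With limma on log2(TPM + 1) 1 was higher, filtered or not, and with log2(TPM + 0.1) 0 were. With 1 library left out, 1 to 3 were higher. On library totals 0 factors had KO libraries all above HET, in place of 1. Without a filter 2 transcripts of the factors were lower, in place of 1, and with 1 library left out 0 to 1 were. Pax2 turned to -0.11 with library totals and -0.07 with limma on each TPM scale, and Jag1 to -0.002615 with library totals. The signs of the other 9 factors were the same in all 18 alternatives. Causes of these moves were not tested, except that leaving a library out leaves fewer samples. Same-numbered libraries did not deviate together (r = -0.068, -0.031 and -0.045 across genes), and r for the other HET and KO pairs ran from -0.114 to 0.135. No pairing by number was seen, but deviations from the means of such small groups cannot exclude it. In the replicate block Meox2 was lost (edgeR, adjusted p = 0.0629) and Meox1 gained (adjusted p = 0.0196), with 3 factors lower.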

Other observations

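The ratio of Meox1 to Meox2 was computed after their values had been seen. It was 1.92, 2.74 and 2.64 in HET and 4.84, 5.48 and 5.54 in KO (CPM over CPM), so that every KO library lay above every HET library and the ratio was 2.20-fold higher on average. The exact permutation p was 0.1 (2-sided), the smallest possible, and the log2 difference of 1.14 ranged from 0.97 to 1.23 with 1 library left out.

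Genes with the most similar pattern over the 6 libraries were found among 10718 genes averaging 5 CPM or more, by the root mean square difference of centred log2(CPM + 1). For Six2, which itself deviated by 0.225 on this scale, they included Tgfbi (0.043) and Phgdh (0.045). For Wt1, which deviated by 0.404, they were Zfp457 (0.087), Slc6a9 (0.093) and Sgcd (0.095). For Cited1, which deviated by 0.521, they were AW551984 (0.155), Aldh1b1 (0.158) and Schip1 (0.162). None of the genes named was another of the 10 factors.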
